A study of Homo sapiens with 12 samples.

Results

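The genes described here are LIN28A, LIN28B, HMGA1, HMGA2, IGF2BP1, IGF2BP2, IGF2BP3 and SALL4, a set of oncofetal genes: active in the embryo or fetus, low in most adult tissues, and often active again in tumours. They were chosen by name, as the oncofetal genes of the LIN28/let-7 axis together with SALL4. The rule uses no value measured here, though the set was chosen with earlier results of these data known. They are 8 of the 57820 genes in the deposited tables, and 8 of 8 were among the 15750 genes with enough counts to be tested. The cells were G401, an established human line from a malignant rhabdoid tumour, and in every group they were SMARCB1(-/-), that is, without the gene for a core subunit of the SWI/SNF chromatin remodelling complexes. Doxycycline induced either GFP, a control protein, or SMARCB1. Each of those cell states received the solvent DMSO or dBRD9-A for 24 hours, with 3 libraries in each of the 4 groups. dBRD9-A causes degradation of the protein BRD9, a subunit of the non-canonical SWI/SNF complex. All results come from this line only, SMARCB1 came from an induced construct, and how long doxycycline was given is not stated in the labels. The labels do not say that replicates were separate cultures, so the p-values measure the spread between these libraries, which may be technical.

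LIN28A and LIN28B are RNA-binding proteins that attach to the precursors of the let-7 microRNAs and block their maturation. LIN28A recruits the enzymes TUT4 and TUT7, which add uridines to the precursor and mark it for decay by DIS3L2. Mature let-7 in turn represses the messages of LIN28A, LIN28B, HMGA2 and the IGF2BP family, so the axis forms a loop that is tilted towards LIN28 in early development and towards let-7 in differentiated cells. HMGA1 and HMGA2 are small chromatin proteins that bind the minor groove of AT-rich DNA through AT-hooks. IGF2BP1, IGF2BP2 and IGF2BP3 bind messages in the cytoplasm and affect their stability, location and translation. SALL4 is a zinc finger transcription factor of embryonic stem cells and fetal liver that recruits the NuRD histone deacetylase complex.

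The genes lie at chr1:26410778-26429722 (LIN28A), chr6:104936616-105083332 (LIN28B), chr6:34236873-34246231 (HMGA1), chr12:65824131-65966295 (HMGA2) and chr17:48997412-49055650 (IGF2BP1) on the plus strand of GRCh38. On the minus strand are IGF2BP2 at chr3:185643739-185825056, IGF2BP3 at chr7:23310209-23470467 and SALL4 at chr20:51782331-51802520.

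The sequences that tie the set together are the let-7 seed and the letters it pairs with. The mature sequences of 9 human let-7 family members matched in RefSeq (GRCh38.p14) share 1 seed, bases 2 to 8, shown in capitals. Of 2351 mature human sequences in that table, 0.468% have it. The following 4 show how the family differs only outside the seed or at the first base.

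hsa-let-7a-5p: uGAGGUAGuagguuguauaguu

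hsa-let-7d-5p: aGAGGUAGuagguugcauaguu

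hsa-let-7g-5p: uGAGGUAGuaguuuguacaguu

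hsa-miR-98-5p: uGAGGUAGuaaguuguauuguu

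LIN28 proteins contact a GGAG motif in the loop region of many of these precursors. The letters GGAG occurred after the mature arm in 9 of 12 let-7 family hairpins, and in 18.9% of 798 human hairpins with a 5p arm. The hairpins of let-7a-1 (chr9:94175957-94176036, plus strand) and let-7a-3 (chr22:46112749-46112822, plus strand) give the same mature sequence, but GGAG, in capitals, was found in the first only.

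MIRLET7A1: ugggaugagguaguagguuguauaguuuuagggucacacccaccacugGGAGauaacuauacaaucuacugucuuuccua

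MIRLET7A3: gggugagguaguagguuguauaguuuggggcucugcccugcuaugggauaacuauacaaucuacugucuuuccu

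The seed pairs with the letters CTACCTC in a message. They were searched on the message strand in the 3′ untranslated region (UTR) of the principal transcript of each gene (GENCODE 29, GRCh38), and 8 of 8 oncofetal genes held at least 1 match. Over 18881 genes the share with a match was 8.61%. LIN28B, HMGA2 and IGF2BP1 held 4 matches each and the other 5 genes 1 each. The set was chosen as genes of the let-7 axis, so these matches describe the choice and are no finding, and a match is not shown to be a site in use. Each line below gives up to 30 bases of the message with the match in capitals. An A after the match is the arrangement preferred by the silencing complex.

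LIN28A: gcacagcctattgaaCTACCTCatttttgc

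LIN28B: acccggttgcaaagtCTACCTCatgcaagt

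HMGA1: tcctctgttcacaaaCTACCTCtggacagt

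HMGA2: gccaacgttcgatttCTACCTCagcagcag

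IGF2BP1: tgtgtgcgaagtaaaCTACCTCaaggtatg

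IGF2BP3: tgcatttttactcaaCTACCTCaggtattc

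SALL4: aaagctttaatttatCTACCTCatttattt

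These matches lie at chr1:26427363-26427369 for LIN28A, chr6:105078827-105078833 for LIN28B, chr6:34245844-34245850 for HMGA1, chr12:65963313-65963319 for HMGA2 and chr17:49051076-49051082 for IGF2BP1, all on the plus strand. Those of IGF2BP3 (chr7:23311796-23311802) and SALL4 (chr20:51782924-51782930) are on the minus strand. The match shown for HMGA2 starts 21 bases after the stop codon, and the one shown for LIN28B 44 bases after it. HMGA1 has no A after its match. Shares were also taken among genes with a 3′ UTR of 0.8 to 1.25 times the length, the gene itself included. At least 1 match was held by 14.8% for HMGA2, 23.7% for LIN28B and 30.2% for IGF2BP1. At least 4, as these genes have, were held by 0.0997%, 0.233% and 0.556%, which again describes the choice of the set. Mature microRNAs are not measured by libraries of polyadenylated RNA, so let-7 itself is not analysed here.

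**Figure D1:**
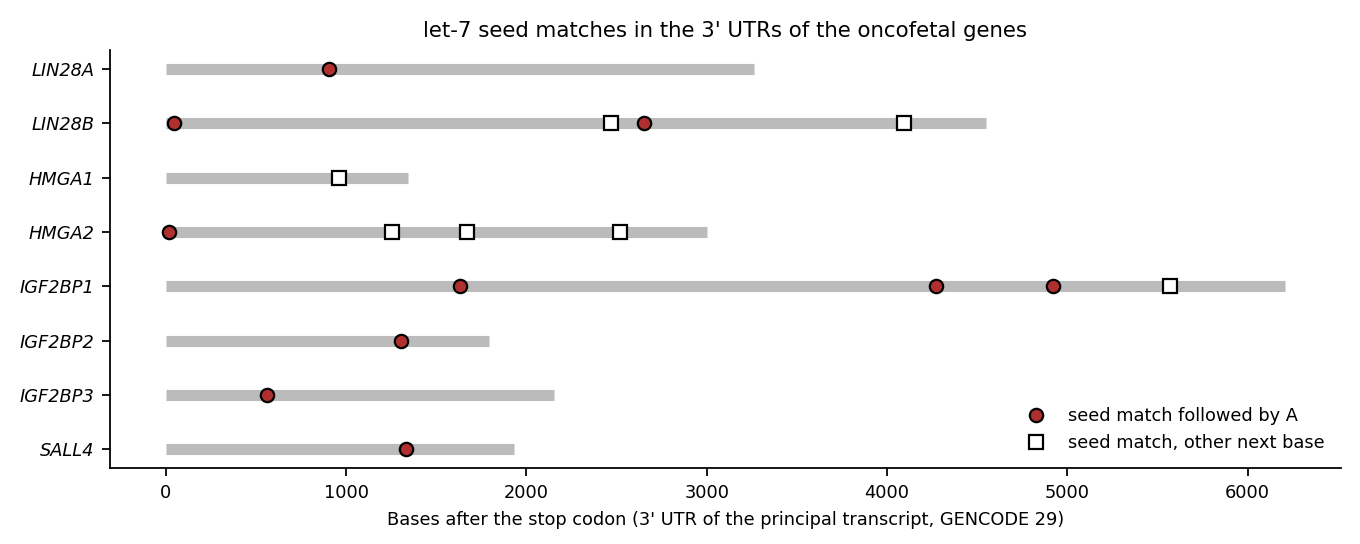
let-7 seed matches in the 3′ UTRs of the 8 oncofetal genes. The x axis is the distance from the stop codon in bases, grey bars are the 3′ UTRs of the principal transcripts in GENCODE 29, red circles are matches followed by A and white squares are matches followed by another base. LIN28B, HMGA2 and IGF2BP1 have 4 matches each, and HMGA1 alone has no match followed by A.

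Depth ran from 34.97 to 58.54 megacounts per library (1 megacount is 1e6 gene counts). SMARCB1, the induced gene, had 0 to 2 counts in the 6 GFP libraries and 53033 to 110893 in the 6 SMARCB1 libraries, which matches the labels, though a count per gene cannot separate the construct from the chromosome. In the induced cells SMARCB1 was itself lower with dBRD9-A, at 1875 ± 59.4 CPM (counts per megacount) with DMSO and 1307 ± 27 CPM with dBRD9-A (SD over 3 libraries, log2 -0.52, SE 0.03, edgeR adjusted p = 4.95e-08). The groups with induced SMARCB1 thus differ in its level as well as in dBRD9-A, and the part of that difference in the results below was not tested. In GFP cells BRD9 RNA averaged 38.3 ± 1.2 CPM under the solvent and 41.1 ± 0.849 CPM under dBRD9-A (SD over 3 libraries). The agent acts on the protein, so its effect on BRD9 was not measured. Of the rhabdoid tumour markers MUC1 was at 0.302 CPM or less, while KRT8, KRT18 and VIM were high. VIM averaged 1318 ± 26.4 CPM in GFP cells with DMSO and 2310 ± 63.2 CPM in SMARCB1 cells with DMSO (SD, n = 3). Summed markers of haematopoietic cells reached at most 0.132 CPM, those of pluripotent cells 0.497 CPM and those of epithelial cells 1.28 CPM. With DMSO, endothelial markers summed to 0.0173 to 0.121 CPM in GFP cells and 0.681 to 1.07 CPM in SMARCB1 cells, with KDR at 0 counts in every library. Skeletal muscle markers summed to 0.605 to 1.05 CPM and 1.79 to 1.98 CPM in the same groups, with MYOD1 and MYOG at 0 counts in every library. Of the stromal markers DCN and LUM had at most 3 counts in every library, while COL1A1 and PDGFRA brought the list to 347 to 365 CPM in GFP cells with DMSO, 260 to 270 with dBRD9-A, 103 to 108 in SMARCB1 cells with DMSO and 72 to 82.6 with dBRD9-A. These marker levels move with the same groups as the genes below, and their part in the results was not tested. In bulk RNA, fewer cells of a type and less RNA per cell cannot be told apart.

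In GFP cells with DMSO, where the tumour cell has no SMARCB1, 7 of the 8 genes were well expressed and LIN28B was low. Levels between genes are compared as CPM per kilobase of the principal transcript. HMGA1 was highest at 211 ± 4.14 CPM per kilobase, followed by HMGA2 at 115 ± 4.24 and LIN28A at 92.7 ± 2.62 (SD, n = 3). IGF2BP3 followed at 44.5 ± 0.78 CPM per kilobase, IGF2BP1 at 29.9 ± 1.29, SALL4 at 26.2 ± 0.55, IGF2BP2 at 15 ± 0.363 and LIN28B at 1.64 ± 0.168. Every library of each gene lay above every library of the next in that order. LIN28A was thus the main LIN28 gene of these cells.

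With dBRD9-A the order in GFP cells was the same, and with SMARCB1 it shifted. In SMARCB1 cells LIN28A stood above HMGA2, at 133 ± 2.89 against 115 ± 2.04 CPM per kilobase with DMSO and 110 ± 3.25 against 94.2 ± 4.69 with dBRD9-A (SD, n = 3). In the same cells IGF2BP2 and SALL4 did not differ beyond their spread, at 23.1 ± 0.536 and 22.8 ± 0.395 CPM per kilobase with DMSO. The place of HMGA2 depends on the length used, because its annotated exons cover 14 kilobases and its principal transcript 4.47. Over the union of exons, a length tried after the values were seen, HMGA2 stood at 36.7 ± 1.35 CPM per kilobase in GFP cells with DMSO, below LIN28A and IGF2BP3.

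**Figure D2:**
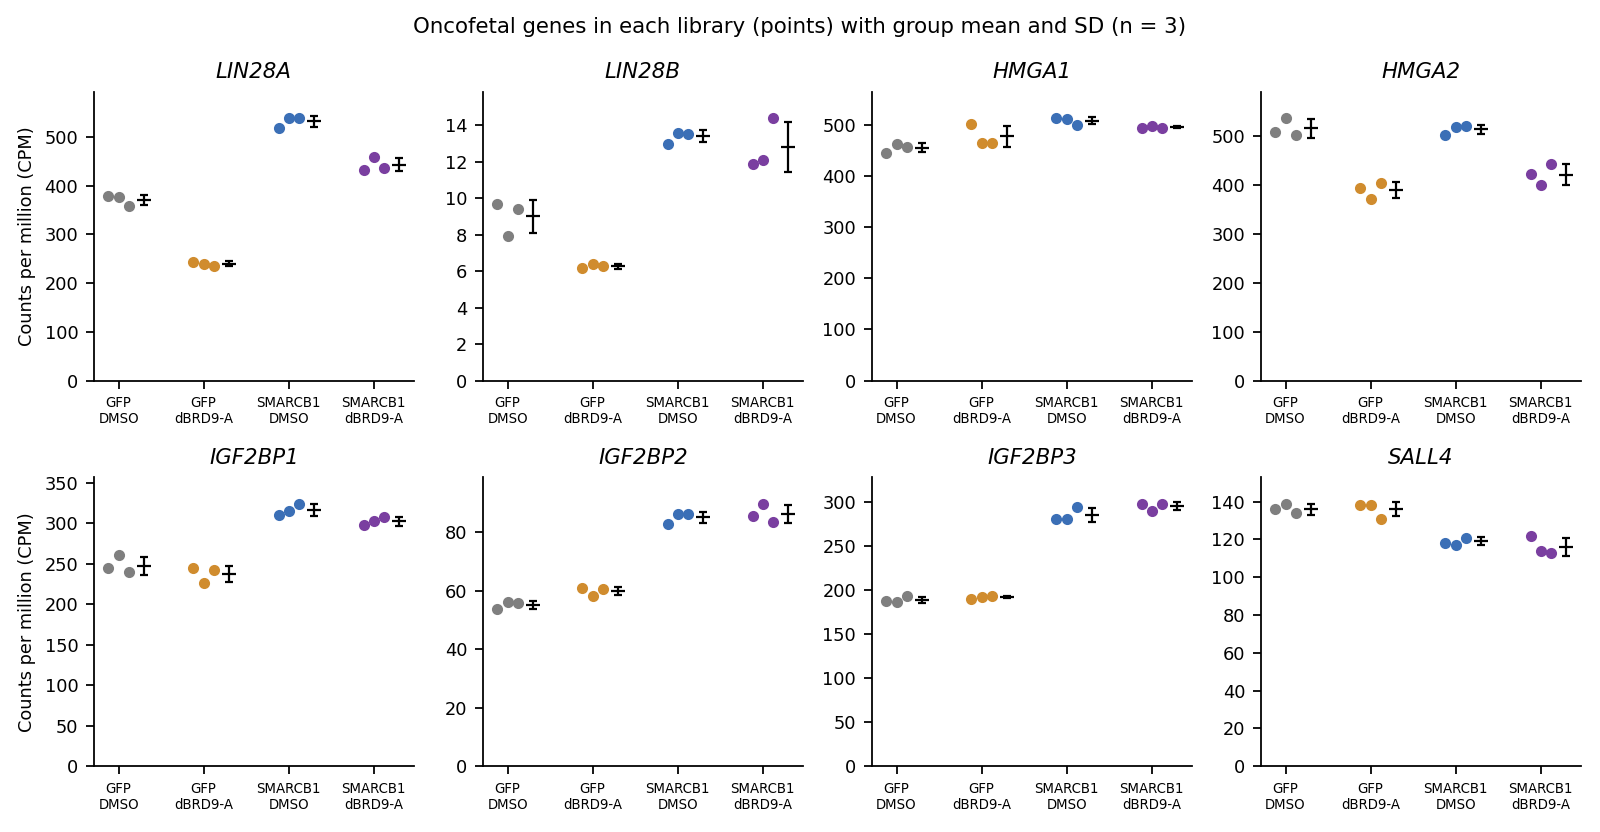
Level of each oncofetal gene in each library. The y axis is CPM from 0, points are the 3 libraries of a group, and the bar beside them is the mean with the SD. LIN28A sits at 359 to 379 CPM in GFP cells with DMSO, at 235 to 244 with dBRD9-A and at 519 to 539 in SMARCB1 cells with DMSO, and IGF2BP3 forms 1 level per cell state.

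The first comparison asks what return of SMARCB1 does to these genes. In DMSO, 6 of the 8 were higher in SMARCB1 cells than in GFP cells, 1 was lower and 1 did not pass the test. Over the genes tested, 33.5% were higher and 31.6% lower by the same rule, which takes genes whose p in the quasi-likelihood test of edgeR stays under 0.05 after adjustment. Under scaling to spike-in RNAs, synthetic transcripts added from outside, the 8 genes gave 7 rises and 0 falls, and the genes tested 6831 rises and 2581 falls in place of 5271 and 4974. The median log2 fold change was 0.44 over the 8 genes and -0.00 over the genes tested. So a rise is common in this comparison, and the genes rose by moderate amounts, none of them more than 1.54-fold. With dBRD9-A in both arms, 6 of 8 were again higher and 1 lower, against 33% and 30.4% of the genes tested, and the median was again 0.44. Spike-in scaling gave 4 rises and 3 falls among the 8, and 2129 rises and 9046 falls among the genes tested in place of 5191 and 4784. The comparisons in DMSO and in dBRD9-A share no library.

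LIN28A, the more abundant of the let-7 blocking proteins' genes, had 379, 376 and 359 CPM in GFP cells with DMSO and 519, 539 and 539 CPM in SMARCB1 cells with DMSO. The groups did not overlap, and SMARCB1 cells were 1.43-fold higher (log2 0.52, SE 0.03, edgeR adjusted p = 5.76e-11). With dBRD9-A it had 244, 240 and 235 CPM in GFP cells and 433, 458 and 437 CPM in SMARCB1 cells. That is a 1.85-fold difference (log2 0.88, SE 0.03, edgeR adjusted p = 3.92e-14).

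LIN28B, the paralog of LIN28A, stood at a much lower level and also rose with SMARCB1. It had 9.68, 7.95 and 9.39 CPM in GFP cells with DMSO, from 328 to 545 counts, and 13, 13.6 and 13.5 CPM in SMARCB1 cells. The difference was 1.48-fold (log2 0.57, SE 0.08, edgeR adjusted p = 5.15e-06), and no library of the groups overlapped. With dBRD9-A it had 6.15, 6.4 and 6.27 CPM in GFP cells and 11.9, 12.1 and 14.4 CPM in SMARCB1 cells, a 2.04-fold difference (log2 1.03, SE 0.09, edgeR adjusted p = 8.98e-09). Its error is wider than that of LIN28A, as its counts are fewer.

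The IGF2BP genes, which encode message-binding proteins, rose with SMARCB1 in DMSO in 3 of 3 cases, against 33.5% of the genes tested. IGF2BP3 had 188, 186 and 193 CPM in GFP cells with DMSO and 280, 280 and 294 CPM in SMARCB1 cells, a 1.51-fold rise (log2 0.59, SE 0.03, edgeR adjusted p = 1.87e-12). IGF2BP2, the member of the family that stays active in many adult tissues, had 53.7, 56.1 and 55.8 CPM against 82.8, 86.2 and 86.2 CPM, a 1.54-fold rise (log2 0.62, SE 0.03, edgeR adjusted p = 2.24e-11). IGF2BP1, with 4 let-7 seed matches in its message, had 244, 260 and 239 CPM against 310, 315 and 324 CPM. Its rise was 1.28-fold (log2 0.36, SE 0.04, edgeR adjusted p = 8.22e-08). The groups did not overlap in any of the 3 genes, and the share of genes tested without overlap was not counted.

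With dBRD9-A in both arms the log2 differences were 0.62 for IGF2BP3, 0.53 for IGF2BP2 and 0.35 for IGF2BP1, close to those in DMSO. IGF2BP3 shares 1521 exon bases with MALSU1, a gene on the opposite strand (GENCODE 29). The kit keeps strand, but whether the counting used it is not given in the sources used here. MALSU1 had 2431 to 4575 counts a library, 31% of those of IGF2BP3, and its log2 change with SMARCB1 was 0.10 in DMSO (SE 0.04, edgeR adjusted p = 0.0294) and 0.28 in dBRD9-A (SE 0.04, edgeR adjusted p = 1.04e-05).

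The HMGA genes, which encode AT-hook proteins, differed from each other. HMGA1 had 445, 463 and 457 CPM in GFP cells with DMSO and 513, 512 and 500 CPM in SMARCB1 cells, a rise of 1.12-fold (log2 0.16, SE 0.03, edgeR adjusted p = 0.000136). HMGA2 had 508, 537 and 502 CPM against 503, 518 and 520 CPM. Those groups overlapped, and the log2 difference was -0.01 with a 95% interval from -0.09 to 0.08 (edgeR adjusted p = 0.916), so a change as large as that of HMGA1 lies outside the interval.

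With dBRD9-A in both arms the differences were small, and neither gene's interaction term passed (-0.11, edgeR adjusted p = 0.218 for HMGA1; 0.12, edgeR adjusted p = 0.298 for HMGA2). HMGA1 did not pass the test (log2 0.05, 95% interval -0.01 to 0.12, edgeR adjusted p = 0.121), though without GFP dBRD9-A replicate 1 it did (0.09, adjusted p = 0.0114). HMGA2 was 1.08-fold higher in SMARCB1 cells (log2 0.11, 95% interval 0.03 to 0.19, edgeR adjusted p = 0.0171), but the groups overlapped, at 394, 371 and 404 CPM against 423, 400 and 442 CPM. That call was lost without GFP dBRD9-A replicate 2 (0.08, adjusted p = 0.104) and without SMARCB1 dBRD9-A replicate 3 (0.08, adjusted p = 0.105). Under spike-in scaling both genes were lower, at -0.27 and -0.22. Reads of HMGA1 can be shared with its pseudogenes, of which HMGA1P2 had the most, at 11 to 28 counts a library. RPSAP52, which overlaps HMGA2 on the opposite strand, had 12 to 30 counts.

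SALL4, the stem cell transcription factor, was the exception in direction. It had 136, 139 and 134 CPM in GFP cells with DMSO and 118, 117 and 121 CPM in SMARCB1 cells, with no overlap, and fell by 0.20 on the log2 scale (SE 0.03, edgeR adjusted p = 2.48e-05). With dBRD9-A it had 138, 138 and 131 CPM against 122, 114 and 113 CPM, and fell by 0.22 (SE 0.03, edgeR adjusted p = 9.89e-06). The change was small, with SMARCB1 cells at 0.87 times the level of GFP cells in DMSO.

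**Figure D3:**
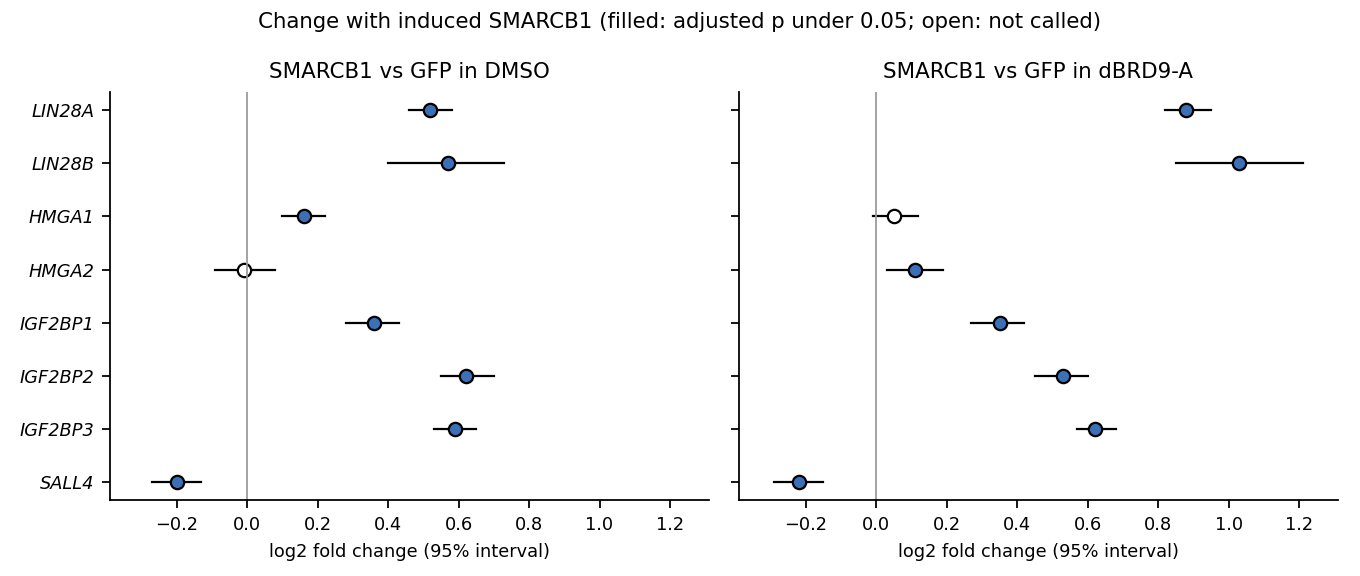
log2 fold change of each oncofetal gene with induced SMARCB1, with DMSO (left) and with dBRD9-A (right) in both arms. Points are estimates, lines are 95% intervals, and filled points have an adjusted p under 0.05. LIN28A and LIN28B move from 0.52 and 0.57 on the left to 0.88 and 1.03 on the right, while SALL4 lies at -0.20 and -0.22. Values under spike-in scaling are not drawn. That scaling gave HMGA2 0.16 with DMSO, and HMGA1 and HMGA2 -0.27 and -0.22 with dBRD9-A.

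The second comparison asks what dBRD9-A does in cells without SMARCB1. In GFP cells, 3 of the 8 genes fell and 1 rose, against 8.47% and 7.43% of the genes tested. Under spike-in scaling the balance turned, with 5 called higher (HMGA1 0.43, IGF2BP1 0.30, IGF2BP2 0.48, IGF2BP3 0.38 and SALL4 0.35) and LIN28A alone lower (-0.27). On the scale of all genes LIN28A fell furthest, from 379, 376 and 359 CPM to 244, 240 and 235 CPM, or 0.65 times its level in DMSO (log2 -0.63, SE 0.03, edgeR adjusted p = 1.9e-10). It ranked 554 from the lowest log2 change among the 15750 genes. LIN28B fell from 9.68, 7.95 and 9.39 CPM to 6.15, 6.4 and 6.27 CPM, or 0.69 times (log2 -0.53, SE 0.09, edgeR adjusted p = 0.000378). HMGA2 fell from 508, 537 and 502 CPM to 394, 371 and 404 CPM, or 0.76 times (log2 -0.40, SE 0.04, edgeR adjusted p = 9.34e-07). None of these 3 genes had overlapping groups, a feature that was not counted over all genes tested.

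IGF2BP2 was the gene that rose, from 53.7, 56.1 and 55.8 CPM to 61, 58.3 and 60.6 CPM. That is 1.09-fold (log2 0.12, SE 0.03, edgeR adjusted p = 0.0257), and the call was lost without GFP DMSO replicate 1 (0.10, adjusted p = 0.12). It was also lost without replicate 1 (0.11, adjusted p = 0.102) and without replicate 3 (0.11, adjusted p = 0.0846) of the GFP libraries given dBRD9-A. HMGA1, IGF2BP1, IGF2BP3 and SALL4 were not called, with log2 changes of 0.07, -0.06, 0.02 and -0.01. Their 95% intervals ran from -0.13, the lower bound of IGF2BP1, to 0.13, the upper bound of HMGA1. The paralogs of the HMGA family thus parted: HMGA2 had 1.13 ± 0.0316 counts for each count of HMGA1 with DMSO and 0.818 ± 0.044 with dBRD9-A (SD, n = 3).

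In SMARCB1 cells dBRD9-A changed few genes, 0.679% of those tested upwards and 1.25% downwards. Of the 8 oncofetal genes 2 fell and 0 rose. LIN28A fell from 519, 539 and 539 CPM to 433, 458 and 437 CPM, or 0.83 times (log2 -0.27, SE 0.03, edgeR adjusted p = 6.24e-05). HMGA2 fell from 503, 518 and 520 CPM to 423, 400 and 442 CPM, or 0.82 times (log2 -0.29, SE 0.04, edgeR adjusted p = 0.000411). Both genes were thus lower with dBRD9-A in each cell state, and the comparisons in the 2 cell states share no library. The groups of both genes did not overlap, which again was not counted over all genes tested.

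LIN28B did not pass in SMARCB1 cells, at 13, 13.6 and 13.5 CPM with DMSO and 11.9, 12.1 and 14.4 CPM with dBRD9-A, where replicate 3 stands above the DMSO libraries. Its log2 change was -0.07 with a 95% interval from -0.23 to 0.09 (edgeR adjusted p = 0.791). The other 5 genes had log2 changes from -0.07 to 0.05, none of them called. The number of genes called over the whole table was 304, and it was 174 without SMARCB1 DMSO replicate 2, 171 without SMARCB1 DMSO replicate 3 and 195 without SMARCB1 dBRD9-A replicate 3. The 2 oncofetal calls were made in each of 12 fits that left out a library.

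**Figure D4:**
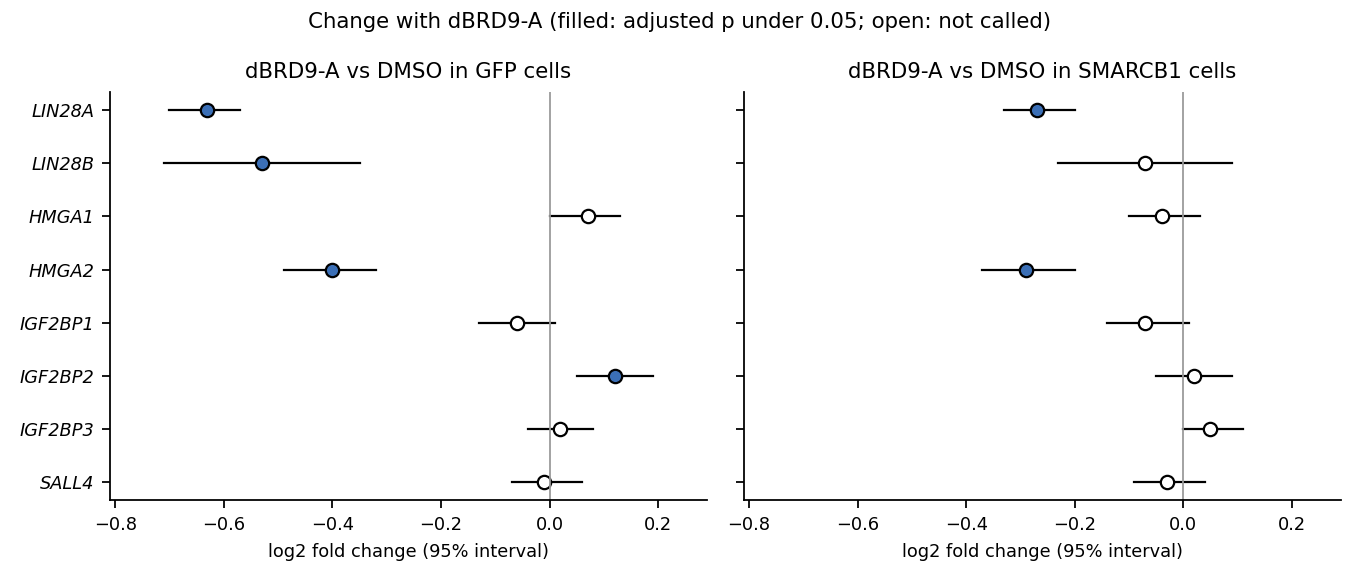
log2 fold change of each oncofetal gene with dBRD9-A against DMSO, in GFP cells (left) and in SMARCB1 cells (right). Points are estimates, lines are 95% intervals, and filled points have an adjusted p under 0.05. LIN28A and HMGA2 lie at -0.63 and -0.40 on the left and at -0.27 and -0.29 on the right. Values under spike-in scaling are not drawn. That scaling gave IGF2BP1 0.30, SALL4 0.35 and HMGA2 -0.04 in GFP cells, and HMGA2 -0.42 in SMARCB1 cells.

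Whether the change with dBRD9-A differed between the cell states was tested by an interaction term, the change in SMARCB1 cells minus that in GFP cells. It was positive and called for 2 of the 8 genes and negative and called for 0, against 2.15% and 1.65% of the genes tested. LIN28A fell less in SMARCB1 cells, with a difference of 0.37 on the log2 scale (SE 0.04, edgeR adjusted p = 5.54e-05), which became -0.13 under spike-in scaling. LIN28B differed by 0.46 (SE 0.12, edgeR adjusted p = 0.0323), which became -0.04 under spike-in scaling. The LIN28B call held without GFP DMSO replicate 2, SMARCB1 dBRD9-A replicate 1 or SMARCB1 dBRD9-A replicate 2, and was lost without any 1 of the other 9 libraries, with an adjusted p up to 0.102 and a value from 0.37 to 0.54. For HMGA2 the difference was 0.12 (95% interval 0.00 to 0.23, edgeR adjusted p = 0.298), so a smaller fall in SMARCB1 cells was not established. SMARCB1 RNA was 0.70 times its DMSO level with dBRD9-A in the induced cells, and its part in these differences was not tested.

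The values above set the trimmed mean of all genes to no change. Scaling to the ERCC spike-in RNAs shifted the median of all genes by 0.17 for SMARCB1 in DMSO, -0.32 for SMARCB1 in dBRD9-A, 0.36 for dBRD9-A in GFP cells, -0.14 for dBRD9-A in SMARCB1 cells and -0.49 for the interaction, all in log2. How the spike-ins were added is not given in the sources used here. Scaling of this kind moves all genes of a comparison together. Relative to these shifts each oncofetal gene thus stood within 0.01 of its value above by construction, which is no separate support. On the spike-in scale itself LIN28A was still higher with SMARCB1 (0.69 in DMSO, 0.56 in dBRD9-A) and lower with dBRD9-A (-0.27 in GFP cells, -0.40 in SMARCB1 cells). IGF2BP2 and IGF2BP3 were still higher with SMARCB1, at 0.79 and 0.76 in DMSO and 0.20 and 0.30 in dBRD9-A. The fall of HMGA2 with dBRD9-A remained in SMARCB1 cells (-0.42, edgeR adjusted p = 0.000198) but not in GFP cells (-0.04, edgeR adjusted p = 0.591), and that of LIN28B in GFP cells was no longer called (-0.17, edgeR adjusted p = 0.12). With SMARCB1, SALL4 was no longer called lower in DMSO (-0.03, edgeR adjusted p = 0.696) but was still lower in dBRD9-A (-0.55, edgeR adjusted p = 5.57e-09). IGF2BP1 was no longer called higher with SMARCB1 in dBRD9-A (0.02, edgeR adjusted p = 0.828).

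The lists below were chosen by role, with results of these data known. The genes that act on let-7 moved in both directions with SMARCB1 in DMSO, 5 of 17 higher and 5 of 17 lower, against 33.5% and 31.6% of the genes tested, with a median log2 change of 0.01 against -0.00 over the genes tested. TUT7, the uridine-adding partner of LIN28A, rose from 17.1 ± 1.32 to 24.3 ± 0.589 CPM (log2 0.52, SE 0.06, edgeR adjusted p = 2.27e-07). TRIM71, an embryonic RNA-binding protein that is itself a let-7 target, rose from 131 ± 3.22 to 164 ± 10 CPM (log2 0.33, SE 0.04, edgeR adjusted p = 4.14e-07). XPO5, the exporter of microRNA precursors, fell by 0.24 (SE 0.04), AGO1, a microRNA effector, by 0.15 (SE 0.04) and DICER1, which cuts the precursors, by 0.13 (SE 0.04), all in log2. Under spike-in scaling AGO1 and DICER1 stood at 0.02 and 0.04 and XPO5 at -0.08, none of them called. With dBRD9-A the list had 4 rises and 0 falls in GFP cells, against 7.43% and 8.47% of the genes tested, and 0 rises and 1 fall in SMARCB1 cells, against 0.679% and 1.25%.

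Transcripts that host let-7 genes were called higher in 2 of 5 cases and lower in 1, against 33.5% and 31.6% of the genes tested. MIRLET7BHG, which spans let-7a-3 and let-7b, went from 1.87 ± 0.278 to 2.54 ± 0.086 CPM (log2 0.45, SE 0.14, edgeR adjusted p = 0.00758), a call lost without GFP DMSO replicate 1 (0.34, adjusted p = 0.0535). HUWE1, host of let-7f-2 and miR-98, rose by 0.40 (SE 0.07), with SMARCB1 DMSO replicate 3 at 347 CPM above the others at 266 and 284. WDR82, host of let-7g, fell by 0.55 (SE 0.03). A host transcript's level is not that of the microRNA.

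Textbook let-7 targets outside the set were higher in 15 of 26 cases and lower in 8, against 33.5% and 31.6% of the genes tested, with a median of 0.18. The lower share is close to that over all genes, and the 15 rises include the call of IGF2, which was lost in DESeq2 and in other fits. CCND2, a D-type cyclin, rose from 0.25 ± 0.0999 to 23.2 ± 1.47 CPM (log2 6.59, SE 0.16, edgeR adjusted p = 1.65e-16), and PLAG1, a fetal growth transcription factor, from 0.633 ± 0.116 to 3.3 ± 0.404 CPM (log2 2.38, SE 0.18). MYC, the growth transcription factor and also an IGF2BP1-bound message, fell from 189 ± 1.56 to 64.3 ± 1.54 CPM (log2 -1.56, SE 0.04, edgeR adjusted p = 1.21e-16). E2F2, a cell cycle transcription factor, fell by 0.68 (SE 0.04). MYCN had at most 1 count in any library. With dBRD9-A in GFP cells the list had 1 rise and 4 falls, against 7.43% and 8.47%.

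Other oncofetal and fetal growth genes were higher in 8 of 11 cases and lower in 3, against 33.5% and 31.6% of the genes tested. Their median log2 change of 1.09 equals that of IGF2, whose call, 1 of the 8 rises, was lost in DESeq2 and in other fits. Of the 3 falls, that of PRAME rests on 2 to 23 counts a library, with overlapping groups. Several genes of the list moved much further than the 8 oncofetal genes. With dBRD9-A the list had 0 rises and 2 falls in GFP cells, against 7.43% and 8.47%. In SMARCB1 cells it had 0 rises and 4 falls, against 0.679% and 1.25%. H19, an imprinted fetal RNA, rose from 5.3 ± 0.382 to 30.8 ± 0.817 CPM (log2 2.53, SE 0.08, edgeR adjusted p = 4.8e-15). In SMARCB1 cells it fell to 15.5 ± 0.556 CPM with dBRD9-A (log2 -0.99, SE 0.07, edgeR adjusted p = 1.14e-07). MEST, an imprinted gene of fetal mesoderm, had 2 to 3 counts in GFP libraries with DMSO and 195 to 256 in SMARCB1 libraries, at least 66.1-fold higher against a floor of 3 counts per library. TPBG, a trophoblast glycoprotein, had 0 counts against 34 to 56, at least 14.4-fold higher. Floors cover counting error only, since the reads carry no molecular identifiers and may be copies of a molecule.

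DLK1, a fetal Notch-family ligand, went the other way, with 61 to 80 counts in GFP libraries with DMSO and 2 to 4 in SMARCB1 libraries (edgeR adjusted p = 4.04e-09). IGF2, the growth factor for which the IGF2BP proteins are named, stayed between 4 and 21 counts in every library. Its call at the threshold (edgeR adjusted p = 0.0498) was lost in DESeq2 (adjusted p = 0.129), and its groups overlapped.

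RNAs known to be bound by IGF2BP proteins were higher in 5 of 8 cases and lower in 2, against 33.5% and 31.6% of the genes tested. The 5 rises include the call of IGF2, which was lost in DESeq2 and in other fits. GLI1, the Hedgehog pathway transcription factor, fell from 7.7 ± 0.396 to 1.02 ± 0.0557 CPM. The list of SALL4's relatives, its partners in NuRD and CRBN had 5 of 16 genes higher and 7 lower. That stands against the same shares of all genes, with a median of -0.07 for the list. CHD5, a remodeller subunit, fell by 2.55 (SE 0.14) and RBBP4, a histone chaperone, by 0.42 (SE 0.03), while MBD2, a methyl-CpG binding protein, rose by 0.39 (SE 0.03) and HDAC1, the deacetylase, by 0.24 (SE 0.02), all in log2. SALL1 and SALL3 had at most 1 count in any library, so SALL4 and SALL2 were the SALL genes detected. Of 12 pluripotency genes 2 were tested, KLF4 and DNMT3B, and POU5F1, NANOG and SOX2 had at most 15 counts in any library. With SMARCB1 in DMSO 0 of these 2 were called higher and 1 lower, against 33.5% and 31.6% of the genes tested. With dBRD9-A in both arms KLF4 was called higher and DNMT3B lower, against 33% and 30.4%. DNMT3B, the embryonic DNA methyltransferase, fell from 169 ± 6.41 to 93.9 ± 2.55 CPM (log2 -0.85, SE 0.03, edgeR adjusted p = 1.17e-13). Genes such as IGF2, H19, MYC, PLAG1 and TRIM71 stand in more than 1 of these lists.

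The likeness of profiles was measured as the root mean square difference of log2 CPM, each gene centred on its own mean, over the 12 libraries and 12585 genes with a mean of at least 50 counts. Outside the set the nearest to LIN28A was HS6ST1 at 0.084, followed by AFF3 at 0.089. The distance from LIN28A to LIN28B was 0.135, the smallest between LIN28A and another oncofetal gene, against a spread of LIN28A about its own mean of 0.427. LIN28B was nearest to BDNF at 0.088 and ATP1B1 at 0.094. IGF2BP3 was nearest to ERBIN at 0.025 and BRI3 at 0.028, and IGF2BP2 to ATP1B3 and NAPG at 0.044. IGF2BP2 and IGF2BP3 lay 0.057 apart, the smallest distance between any of the 8 genes.

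IGF2BP1 was nearest to BRAF at 0.033 and TACC1 at 0.034. HMGA2 was nearest to LSAMP at 0.051 and RAPGEF3 at 0.071, and stood 0.197 from HMGA1. HMGA1 was nearest to GFUS and RNF185 at 0.031, and SALL4 to AIMP1 at 0.030 and WASHC5 at 0.031. The latter distances are small partly by scale, since HMGA1 and SALL4 varied by only 0.067 and 0.111 about their own means. A likeness over 12 libraries in 4 groups is a description of level only.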

How the data were processed

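RNA sequencing of 12 G401 libraries was analysed. Per the submitters' processing notes, the tools were STAR, RSEM 1.3.1 and DESeq2 and the build GRCh37 (hg19). The annotation and the use of strand are not given in the sources used here. The authors deposited 3 tables of expected counts per gene, whose shared libraries hold identical values. Expected counts were rounded. Counts of 40 ERCC spike-ins, 0.96% to 1.3% of a library, entered neither library sizes nor tests. Depth was 34.97 to 58.54 megacounts (1e6 counts).

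Genes passing filterByExpr (minimum count 10), 15750 in all, were tested in R 4.3.3 with edgeR 4.0.16: TMM scaling, a quasi-likelihood fit over the 12 libraries in which each group had its own coefficient, and Benjamini-Hochberg adjustment over all genes tested, with calls at 0.05. SEs derive from the quasi-F statistic, and intervals are 95%. CPM use TMM-scaled library sizes. The steps were tested on simulated data for SMARCB1 against GFP in DMSO (15750 genes), where 97 of 100 genes changed by log2 1 and 89 of 100 changed by log2 0.5 were recovered. Changes smaller than log2 0.5, as several of the members had, were not simulated. DESeq2 1.42.0 was an alternative, beside other scalings, filters, a replicate block and left-out libraries.

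The members and gene lists were chosen with earlier results of these data known. Every member is named; per list, at most the 2 largest called rises and falls with SMARCB1 in DMSO, and TRIM71, DICER1, MYC, MYCN, IGF2 and H19 for their roles; per member, the 2 nearest profiles; and pseudogenes and antisense genes. Names outside this rule (MALSU1, CRBN, SALL1, SALL2, SALL3, POU5F1, NANOG, SOX2, KLF4 and marker genes) were added after their values were seen. Symbols matched 51996 of the 57820 identifiers. Coordinates, lengths and sequences come from GENCODE 29 (GRCh38) and RefSeq (GRCh38.p14), not from the build of the deposited tables.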

Additional observations from a re-analysis of the deposited data

Results flagged for a closer look

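For 4 genes the change with dBRD9-A differed between the cell states, as the change in SMARCB1 cells minus that in GFP cells (log2, interaction term in edgeR, 12 libraries). For LIN28A the difference was 0.37 (SE 0.04, adjusted p = 5.54e-05), with a fall in both cell states and every library lower with dBRD9-A. For LIN28B it was 0.46 (SE 0.12, adjusted p = 0.0323), with a call in 3 of 12 fits that left out a library. For the fetal RNA H19 it was -0.67 (SE 0.12, adjusted p = 0.00294), a larger fall in SMARCB1 cells. For the DNA methyltransferase DNMT3B it was -0.17 (SE 0.04, adjusted p = 0.0488), which no longer passed with a replicate block (adjusted p = 0.0721) or with no filter on low counts (-0.15, adjusted p = 0.0575), and in 10 of 12 fits that left out a library (adjusted p up to 0.125). Under spike-in scaling the differences of LIN28A and LIN28B turned to -0.13 and -0.04, neither called.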

How the results depend on the processing

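Over the 8 genes and 5 contrasts, DESeq2's test, edgeR with DESeq2's size factors and the replicate block each kept the call of 40 of 40 values. The fits of only the groups compared kept 32 of 32. With no filter on low counts 39 of 40 held, and of 480 values with a library left out 465 held. Uncalled values near 0 could change sign and still count as held. HMGA2 with SMARCB1 in DMSO did so, at -0.01 and at 0.03 without GFP DMSO replicate 2. Spike-in scaling kept 21 of 40 and reversed 9, as it moved all genes together. With SMARCB1 in DMSO it gave HMGA2 0.16, AGO1 0.02 and DICER1 0.04, and with SMARCB1 in dBRD9-A HMGA1 -0.27 and HMGA2 -0.22. With dBRD9-A in GFP cells it gave IGF2BP1 0.30 and SALL4 0.35, and for the interaction LIN28A -0.13, LIN28B -0.04, HMGA2 -0.38 and IGF2BP3 -0.47. It called 11310 genes for dBRD9-A in GFP cells (11083 higher, 227 lower, against 1170 and 1334), 873 for dBRD9-A in SMARCB1 cells (39 higher, 834 lower) and 11270 for the interaction (66 positive, 11204 negative), with 6 oncofetal genes, all negative, in place of 2. For dBRD9-A in SMARCB1 cells 304 genes were called, 652 with no filter (294 higher, 358 lower), 156 with only the 2 groups compared (35 higher, 121 lower) and 171 to 423 with a library left out. Oncofetal calls for the interaction numbered 1 to 2 with a library left out. The cause of these shifts was not tested beyond the scaling itself. The replicate block gave 10113 calls against 10245 for SMARCB1 in DMSO. The labels do not say whether libraries with the same number were prepared together, and no shift shared by them was detected. Same-numbered libraries had correlations of deviations from -0.056 to 0.061 over 18 pairs, 0 of them over 0.1. Others had -0.054 to 0.074 over 36 pairs, and 3 of 12 libraries correlated best with their own number. LIN28B, at 222 to 785 counts a library, is the member that depth limits most.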
